A study of Mus musculus with 12 samples.

Results

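The plasminogen activation system was followed through 6 of its genes in fibroblasts that were being converted to motor neurons. The members were the rows of the deposited gene table with the symbols Plau, Plat, Plaur, Serpinb2, Serpine2 and Serpinf1, 6 of 23077 genes, and all 6 were abundant enough to be tested. Their levels fell into opposite patterns. The urokinase gene Plau, its receptor gene Plaur and the inhibitor gene Serpinb2 were highest in the cells whose vector carried oncogenic HRAS ahead of the internal ribosome entry site, 13.8- to 26.0-fold above the cells given a p53 fragment without HRAS. Plat and Serpinf1 were lower there. Serpine2, Plat and Serpinf1 were highest in the cells that received the conversion factors alone, although Serpinf1 did not pass against the p53 fragment without HRAS.

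Plasminogen is an inactive protease precursor that circulates in blood. It is cut to plasmin, which dissolves fibrin and degrades extracellular matrix, by the urokinase-type activator (uPA, encoded by Plau) or the tissue-type activator (tPA, Plat). The urokinase receptor (uPAR, Plaur) holds uPA at the cell surface, and serpins block the activators by trapping them in an inactive complex. In fibroblasts and migrating cells the system is best known for remodelling matrix around the cell, and Plau and Plaur are textbook targets of growth factor signalling through RAS and MAP kinases.

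The cells were primary mouse embryonic fibroblasts (MEFs) of the genotype Hb9::GFP, a reporter for motor neurons. All 4 groups received a retrovirus carrying Ngn2, Isl1 and Lhx3 joined by 2A peptides (NIL), and all were moved on day 3 after infection to N3 medium, a DMEM/F-12 medium with N2, B27, Glutamax and the growth factors FGF, CNTF, GDNF and BDNF, and collected on day 4. The group called NIL had no further virus. SDD cells were infected in addition with SNAP-p53DD, a SNAP tag fused to a dominant-negative fragment of p53. In the SDDIR group this fusion was followed by an internal ribosome entry site (IRES) and the constitutively active mutant HRAS(G12V). In the RISDD group HRAS(G12V) came first and the fusion followed the IRES. The gene placed after an IRES is usually translated less. This applies to HRAS in SDDIR and to the SNAP-p53DD fusion in RISDD. Levels of HRAS and p53DD protein are not part of the data used here. From day 3 the medium of SDD, SDDIR and RISDD cells held RepSox, which inhibits the TGF-beta receptor, and these cells were stained and sorted for the SNAP tag, whereas the NIL sort took any live single cell. In a difference from NIL, the effects of the second virus, of RepSox and of the sort cannot be told apart. In a difference of RISDD from SDD or SDDIR, effects of HRAS, of the p53DD level and of the SNAP sort cannot be told apart. The labels give no age or pooling of the embryos and do not say whether replicates A to C are separate cultures, so the p-values cover only the spread among these samples, which may be technical.

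Values are the deposited gene counts scaled to each library, and levels are not compared between genes because they are not corrected for gene length. NIL, SDD and RISDD had 3 libraries each and SDDIR had 2, with 14872639 to 29815073 reads per library. The Trp53 row, which also counts the p53DD fragment, was at 2873 to 3674 in NIL and higher in the other groups, as the labels place it. It was at 32346 to 40363 in SDD, 29277 and 37068 in SDDIR and 43128 to 46185 in RISDD, highest in all RISDD libraries. NIL C stood apart: mitochondrially encoded genes made up 0.537% of its signal and 2.60% to 4.04% of that of the other libraries, and its correlation with NIL A and NIL B was 0.926 and 0.916 against 0.970 to 0.984 for all other pairs within a group (Pearson, log2 values across genes). The 12 fibroblast markers were all detected in every library. Their summed level was 957922 to 1396160 (NIL), 703922 to 830786 (SDD), 261210 to 286950 (SDDIR) and 196720 to 212430 (RISDD).

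Changes were tested with limma on log2(value + 1), with all 4 groups in 1 fit, and a gene passed at a Benjamini-Hochberg adjusted p under 0.05 over all 14207 tested genes. Folds are on that scale. Against NIL, SDD cells had 0 of the 6 members higher and 4 lower, beside 9.32% of all tested genes higher and 8.26% lower. Against SDD, SDDIR cells had 2 members higher and 2 lower, where 8.66% of tested genes were higher and 13.9% lower. That split of all genes was 1230 higher and 1969 lower, and it became 1718 higher and 1790 lower when libraries were quantile-normalized. Against SDD, RISDD cells had 4 members higher and 2 lower, where 20.0% of tested genes were higher and 22.6% lower. Between the HRAS groups, RISDD had 3 members higher and 1 lower than SDDIR, where 4.64% and 5.05% of tested genes moved in those directions. SDDIR had 0 members higher and 3 lower than NIL (15.3% and 18.2% of tested genes). RISDD had 3 higher and 3 lower than NIL (23.2% and 23.5%). These 6 comparisons share libraries and are not independent of each other. Of the 36 member values 27 passed. The median log2 difference of the members was -1.48 for SDD against NIL, 0.28 for SDDIR against SDD and 2.27 for RISDD against SDD, beside 0.05, 0.01 and 0.02 over all tested genes.

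**Figure D1:**
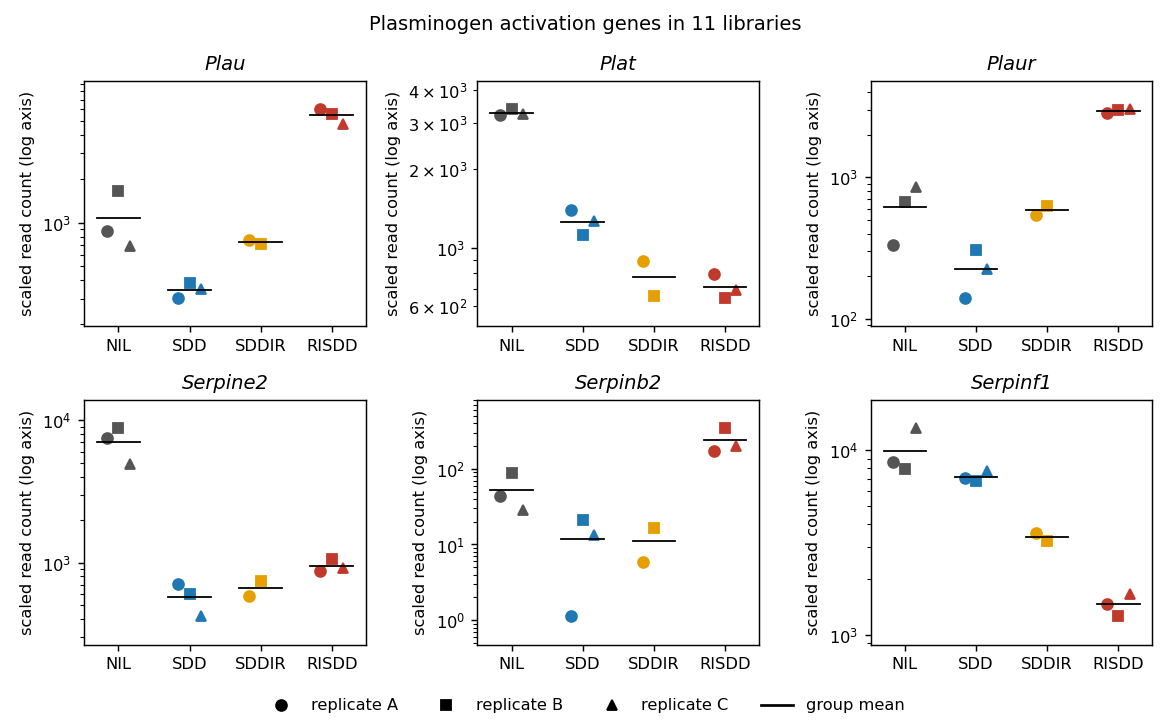
Scaled read counts of the 6 genes in each of the 11 libraries (log axis, 1 panel a gene, symbols for replicates, lines for group means). Plau and Plaur are highest in all 3 RISDD libraries, at 4772 to 6012 and 2827 to 3026, and Serpine2 is highest in all 3 NIL libraries, at 4913 to 8853.

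Transcripts of urokinase itself were lowest in SDD and highest in RISDD. Plau (ENSMUSG00000021822.4) was at 872, 1641 and 696 in NIL A, B and C, at 304, 386 and 348 in SDD and at 763 and 708 in SDDIR. The RISDD libraries were at 6012, 5596 and 4772. The RISDD libraries stood above all others and the SDD libraries below all others, while SDDIR fell inside the range of NIL. Group means were 346 ± 40.7 in SDD, 735 ± 39.1 in SDDIR (n = 2), 1069 ± 503 in NIL and 5460 ± 631 in RISDD (SD, n = 3 unless given). Plau fell 2.89-fold from NIL to SDD (log2 -1.53, SE 0.26, adjusted p = 0.00431 by limma). It was 15.7-fold higher in RISDD than in SDD (log2 3.98, SE 0.26, adjusted p = 1.52e-06) and 7.39-fold higher than in SDDIR (adjusted p = 5.23e-04). In every alternative fit these calls held. The rise from SDD to SDDIR was 2.13-fold (adjusted p = 0.0227) and rested on single libraries: adjusted p was 0.0774 without SDD A, 0.0591 without SDD C, 0.139 without SDDIR A and 0.103 without SDDIR B, and 0.00118 to 0.139 over all alternatives. SDDIR and NIL, neighbours in this order, did not differ beyond their spread (log2 -0.44, 95% interval -1.09 to 0.21, adjusted p = 0.269), although without NIL C the difference passed (log2 -0.70, adjusted p = 0.0451, within 0.0451 to 0.735 over all alternatives). RISDD exceeded NIL 5.44-fold (adjusted p = 4.2e-05).

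The urokinase receptor gene followed the same order of groups, with SDDIR inside the range of NIL. Plaur (ENSMUSG00000046223.11) was at 332.8, 670 and 853 in NIL, at 141, 305 and 225 in SDD and at 544 and 627 in SDDIR. RISDD libraries A to C gave 2827, 2997 and 3026. The RISDD values lay close together and above all others. Both SDDIR values lay inside the NIL range and above all SDD values. Means were 224 ± 81.8 (SDD), 585 ± 59.0 (SDDIR), 619 ± 264 (NIL) and 2950 ± 108 (RISDD). RISDD was 13.8-fold above SDD (log2 3.78, SE 0.34, adjusted p = 1.1e-05) and 5.12-fold above NIL (adjusted p = 2.92e-04), and both calls held in every alternative. RISDD was 5.04-fold above SDDIR (adjusted p = 0.00473, and 0.0643 without SDDIR A, the highest of a range from 4.7e-08). The gain from SDD to SDDIR was 2.73-fold (adjusted p = 0.0194), and the call was lost without SDD A (adjusted p = 0.0672), SDDIR A (0.0868) or SDDIR B (0.132), within a range of 0.0017 to 0.132 over all alternatives. Plaur fell 2.69-fold from NIL to SDD (adjusted p = 0.0176), a call lost in a fit of those 2 groups alone (adjusted p = 0.108), without SDD A (0.0691) or without SDD C (0.0548), with a lowest value of 2.27e-04 over the alternatives. Between SDDIR and NIL the log2 difference was 0.02 with a 95% interval of -0.82 to 0.86, which spans a change in either direction.

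Serpinb2 encodes plasminogen activator inhibitor 2 (PAI-2), a serpin that blocks uPA. It was the rarest of the 6 genes by reads. Serpinb2 (ENSMUSG00000062345.11) was at 43.1, 88.1 and 28.1 in NIL, at 1.13, 21.3 and 13.5 in SDD and at 5.93 and 16.6 in SDDIR. In RISDD the values were 172, 348 and 199. The lowest of these, SDD A, was a single read, and SDDIR had 7 and 14 reads, against 139 to 344 reads in RISDD. All RISDD values lay above all NIL values, which lay above all SDD and SDDIR values, and SDD and SDDIR overlapped. Means were 11.97 ± 10.2 (SDD), 11.3 ± 7.54 (SDDIR), 53.1 ± 31.2 (NIL) and 239.7 ± 94.7 (RISDD). RISDD was 26.0-fold above SDD (log2 4.70, SE 0.81, adjusted p = 8.64e-04), a call that held in every alternative with log2 differences of 3.57 to 5.37. It was 20.8-fold above SDDIR (adjusted p = 0.0142), which was lost without RISDD B (adjusted p = 0.0602), SDDIR A (0.152) or SDDIR B (0.0519), over a range of 5.96e-07 to 0.152. It was 4.72-fold above NIL (adjusted p = 0.0422), lost with no filter on low values (0.0502) and in 8 of the 11 fits with a library left out, over a range of 0.00239 to 0.135. Between SDDIR and SDD the log2 difference was 0.32 with a 95% interval of -1.67 to 2.32, which spans several-fold changes either way. The differences of SDD and SDDIR from NIL were -2.46 (adjusted p = 0.0595) and -2.14 (adjusted p = 0.0917). The first passed in 6 alternatives, among them DESeq2 on the recovered reads (adjusted p = 0.0112, range 0.0112 to 0.18), and the second passed in 4 (DESeq2 adjusted p = 0.0133, range 0.0133 to 0.423).

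Promoter sequence is shown for Plaur and Serpinb2 because both were highest in RISDD and both hold a match to the AP-1 motif, the element bound by FOS and JUN factors downstream of MAP kinases. RefSeq promoter entries (GRCm38.p6) were matched for 4 of the 6 members (Plaur, Serpinb2, Serpine2 and Serpinf1). The 250 bases before the start site are given 5′ to 3′ on the strand of the gene, with the AP-1 match in capitals, for Plaur (chr7:24462233-24462482, plus strand) and for the first of the Serpinb2 start sites (chr1:107511173-107511422, plus strand).
Plaur: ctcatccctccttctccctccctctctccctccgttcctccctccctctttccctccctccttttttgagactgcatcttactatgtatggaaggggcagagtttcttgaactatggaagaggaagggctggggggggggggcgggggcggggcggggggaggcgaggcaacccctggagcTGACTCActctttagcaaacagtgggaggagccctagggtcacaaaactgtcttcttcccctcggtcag
Serpinb2: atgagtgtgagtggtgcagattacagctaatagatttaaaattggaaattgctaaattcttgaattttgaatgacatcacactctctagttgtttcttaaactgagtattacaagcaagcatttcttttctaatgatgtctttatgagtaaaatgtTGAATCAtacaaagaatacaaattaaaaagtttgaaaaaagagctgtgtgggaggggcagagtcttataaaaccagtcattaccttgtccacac
The motif searched was TGANTCA on both strands. Counted from the start site, its first base lies at -69 in Plaur (TGACTCA) and at -94 in Serpinb2 (TGAATCA), and the same match lies at -181 from the second Serpinb2 start. Of all 32536 RefSeq promoter windows of this length 6.73% hold such a match, and the Serpine2 and Serpinf1 windows hold none. Plaur also has 3 GC boxes (GGGCGG, in 33.0% of windows) that overlap the same G-rich stretch, and 1 AGGAAG, a core bound by ETS factors (29.6% of windows). Serpinb2 has a TATAAA box at -29 from its first start (12.3% of windows). The cyclic AMP element TGACGTCA was in none of the windows of these 4 genes (1.56% of all). The Serpine2 window holds 6 GC boxes and is 78.8% G and C, against a median of 52.4% over all windows. These matches describe letters in a window and do not show binding. Plaur and Serpinb2 were chosen by their level and by the match itself, so a link between the motif and the levels was not tested. No window was matched for Plau. Serpine2, without a match, was also called higher in RISDD than in SDD, though not in every alternative.

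The other activator gene did not share the pattern of Plau. Plat (ENSMUSG00000031538.7) was at 3210, 3385 and 3254 in NIL, at 1398, 1117 and 1264 in SDD and at 894 and 654 in SDDIR. The RISDD libraries were at 796, 646 and 689. NIL was the highest and SDD lay between NIL and both HRAS groups, which overlapped each other. Means were 3283 ± 91.2 (NIL), 1260 ± 141 (SDD), 774 ± 170 (SDDIR) and 711 ± 77.4 (RISDD). Plat fell 2.62-fold from NIL to SDD (log2 -1.39, SE 0.15, adjusted p = 4.15e-04) and was 1.77-fold lower again in RISDD than in SDD (adjusted p = 0.00112). Both calls held in every alternative. SDDIR was 1.64-fold below SDD (adjusted p = 0.0107, and 0.14 without SDDIR B, the highest of a range from 5.71e-04). The HRAS groups did not differ beyond their spread (log2 -0.11, 95% interval -0.48 to 0.25, adjusted p = 0.77). Against NIL, the fall was 4.29-fold in SDDIR (adjusted p = 1.93e-05) and 4.63-fold in RISDD (adjusted p = 1.73e-06). RISDD was thus higher than SDD in transcripts of urokinase and lower in those of the tissue activator.

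Serpine2 encodes protease nexin-1, which inhibits thrombin, urokinase, tissue activator and plasmin. Like Plat, it separated NIL from all other groups. Serpine2 (ENSMUSG00000026249.11) was at 7499, 8853 and 4913 in NIL, at 704, 605 and 420 in SDD and at 587 and 747 in SDDIR. RISDD libraries A to C gave 871, 1066 and 920. All NIL values lay above all others, SDD and SDDIR overlapped, and RISDD lay above both. Means were 7089 ± 2002, 576 ± 144, 667 ± 113 and 952 ± 101 in that order. The fall from NIL was 12.2-fold in SDD (log2 -3.61, SE 0.24, adjusted p = 3.15e-05), 10.4-fold in SDDIR (adjusted p = 2.3e-05) and 7.25-fold in RISDD (adjusted p = 8.93e-06), and the calls held in every alternative. Among the SNAP-sorted groups the differences were small. RISDD was 1.68-fold above SDD (adjusted p = 0.029), a call lost without SDD B (adjusted p = 0.0541), SDD C (0.118), RISDD A (0.0538), RISDD B (0.101) or RISDD C (0.0674), over a range of 0.0054 to 0.118. Neither SDDIR against SDD (log2 0.23, 95% interval -0.37 to 0.83) nor RISDD against SDDIR (log2 0.52, -0.08 to 1.12, adjusted p = 0.287) passed, although the latter passed when those 2 groups were fitted alone (adjusted p = 0.0126, range 0.0126 to 0.787).

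Serpinf1 encodes pigment epithelium-derived factor (PEDF), a secreted serpin that does not inhibit proteases and is known for blocking angiogenesis and supporting neurons. It stepped down from group to group. Serpinf1 (ENSMUSG00000000753.16) was at 8660, 7882 and 13199.5 in NIL, at 7039, 6786 and 7660 in SDD and at 3553 and 3232 in SDDIR. In RISDD the values were 1462, 1259 and 1668. No groups overlapped, and the highest value was that of NIL C. Means were 9914 ± 2872, 7162 ± 449, 3392 ± 227 and 1463 ± 205. RISDD was 4.92-fold below SDD (log2 -2.30, SE 0.19, adjusted p = 5.91e-06) and SDDIR was 2.11-fold below SDD (adjusted p = 0.00419), in every alternative. RISDD was 2.33-fold below SDDIR (adjusted p = 0.00599, and 0.0776 without SDDIR A, the highest of a range from 4.29e-06). SDD and NIL, neighbours in this order, differed by -0.43 on the log2 scale (95% interval -0.85 to -0.02), which did not pass over all genes (adjusted p = 0.132) except with a replicate block (0.0492, range 0.0492 to 0.285). Against NIL, Serpinf1 was 2.85-fold lower in SDDIR (adjusted p = 4.89e-04) and 6.64-fold lower in RISDD (adjusted p = 2.06e-06).

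**Figure D2:**
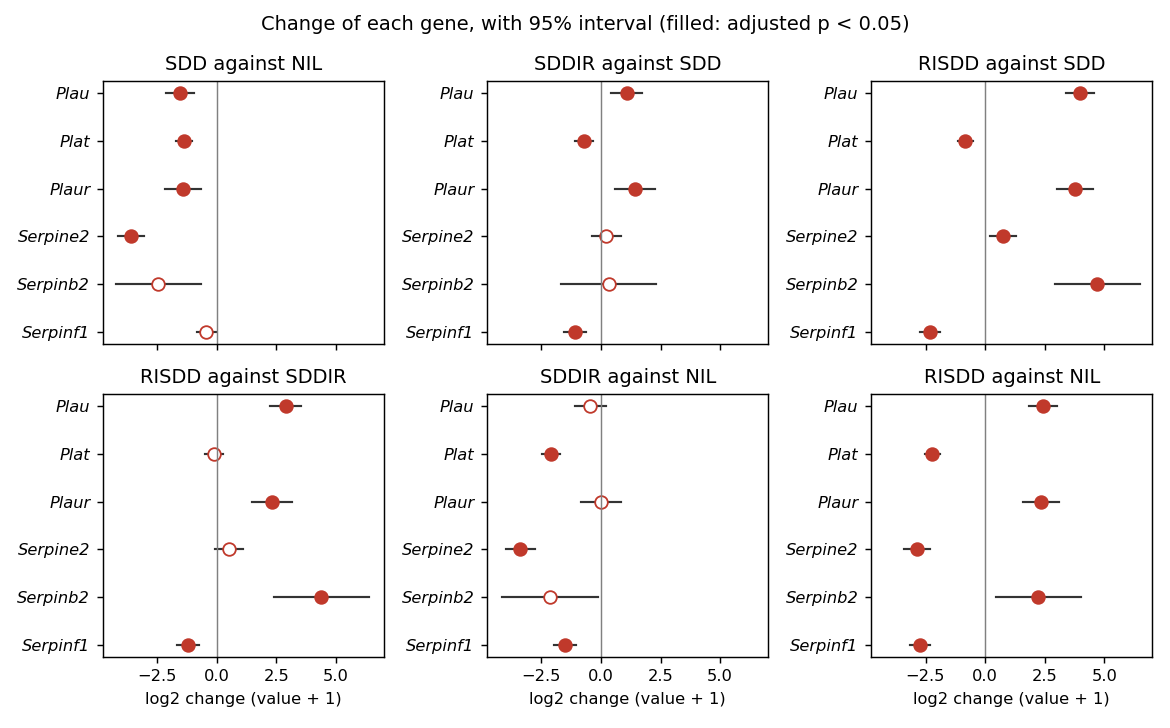
Log2 difference (value + 1) of each gene in the 6 comparisons, with 95% intervals; filled points passed at an adjusted p under 0.05. Plau, Plaur and Serpinb2 lie at 3.98, 3.78 and 4.70 for RISDD against SDD, and Plat and Serpinf1 at -0.82 and -2.30.

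NIL B had the highest Plau, Plat, Serpine2 and Serpinb2 of its group, and NIL C the highest Plaur and Serpinf1. The sum of 12 macrophage markers was 3816 in NIL A, 14731 in NIL B and 5981 in NIL C. Without NIL C the fall from NIL to SDD was -1.79 for Plau (adjusted p = 8.17e-04), -1.39 for Plat, -1.14 for Plaur (adjusted p = 0.0358), -3.85 for Serpine2 and -2.83 for Serpinb2 on the log2 scale, and the last then passed (adjusted p = 0.0466). Serpinb2 in RISDD against NIL was 1.87 without NIL C and no longer passed (adjusted p = 0.107).

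The rest of the system was read from a list of 27 other genes, of which 24 were in the table and 19 were abundant enough to be tested. Plasminogen (Plg) had 1 read in the 11 libraries together and vitronectin (Vtn), a matrix protein that binds uPAR, also had 1 read. A count of 0 allows up to 3 reads, or a value of 1.84 to 3.71 depending on the library, counting error only. These cells thus held transcripts for the activators and the receptor with almost none for their substrate, which the liver supplies in the animal. The plasma inhibitor gene Serpinf2 had 43 reads and Klkb1, the plasma kallikrein gene, had 9 in all libraries together, and F13a1, a clot cross-linking enzyme, had 84, all too few to be tested. Of the 19 tested genes, 2 were higher and 7 lower in SDD than in NIL (median log2 difference -0.20), beside 9.32% and 8.26% of all tested genes. From SDD to SDDIR 0 rose and 7 fell (median -0.44, beside 8.66% and 13.9% of all). From SDD to RISDD 3 rose and 9 fell (median -0.45, beside 20.0% and 22.6% of all). RISDD had 3 higher and 3 lower than SDDIR (median -0.15, beside 4.64% and 5.05% of all). Against NIL, 1 was higher and 11 lower in SDDIR (beside 15.3% and 18.2% of all). In RISDD 1 was higher and 8 lower than in NIL (beside 23.2% and 23.5% of all).

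Lrp1 takes up complexes of activators with their inhibitors, together with uPAR. It was at 32309.5, 38995 and 65964 in NIL, at 25226, 20671 and 20126 in SDD and at 7837 and 8704 in SDDIR. The RISDD libraries were at 5802, 6634 and 6475. The fall was 1.99-fold from NIL to SDD (adjusted p = 0.0141, lost with those 2 groups alone and without SDD B or SDD C, range 1.82e-04 to 0.0911), 2.65-fold from SDD to SDDIR (adjusted p = 0.00273) and 3.48-fold from SDD to RISDD (adjusted p = 1.03e-04). Mrc2 encodes a collagen receptor that associates with uPAR. It was at 10752 to 17602 in NIL, 6546 to 7799 in SDD, 2167 and 2264 in SDDIR, with 1268 to 1514 in RISDD, a fall from SDD of 3.18-fold (SDDIR, adjusted p = 2.14e-04) and 5.06-fold (RISDD, adjusted p = 3.06e-06). The list of 6 clearance genes held these, the receptor genes Vldlr, Igf2r and Lrp2, and Lrpap1, which encodes a chaperone of such receptors. From SDD to SDDIR 0 of the 6 rose and 3 fell (Lrp1, Mrc2 and Lrpap1), beside 8.66% and 13.9% of all tested genes. From SDD to RISDD 0 rose and 5 fell, all but Lrp2, beside 20.0% and 22.6% of all tested genes.

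Serping1 encodes the C1 inhibitor, which blocks complement and contact proteases. It was at 2004, 1828 and 2263 in NIL, at 4143, 3755 and 3827 in SDD and at 299 and 339 in SDDIR. In RISDD the values were 171, 149 and 143. From SDD it fell 12.2-fold to SDDIR (adjusted p = 7.68e-07) and 25.2-fold to RISDD (adjusted p = 1.79e-08), and it was 2.06-fold lower in RISDD than in SDDIR (adjusted p = 0.00201).

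Of the receptors that bind plasminogen at the surface, 2 form the annexin A2 complex. Anxa2, which binds plasminogen and tPA, averaged 20414 in NIL and 10004 in SDD, 2.00-fold lower in SDD (adjusted p = 0.00584, and 0.0563 with those 2 groups alone, the highest of a range from 1.02e-05). Its partner S100a10 was at 1500 and 1395 in SDDIR and at 2866 to 2952 in RISDD, 2.02-fold higher in RISDD (adjusted p = 0.00518, and 0.0563 without SDDIR B, the highest of a range from 1.08e-06). F2r, the thrombin receptor, was 2.16-fold lower in SDD than in NIL (adjusted p = 0.00203).

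**Figure D3:**
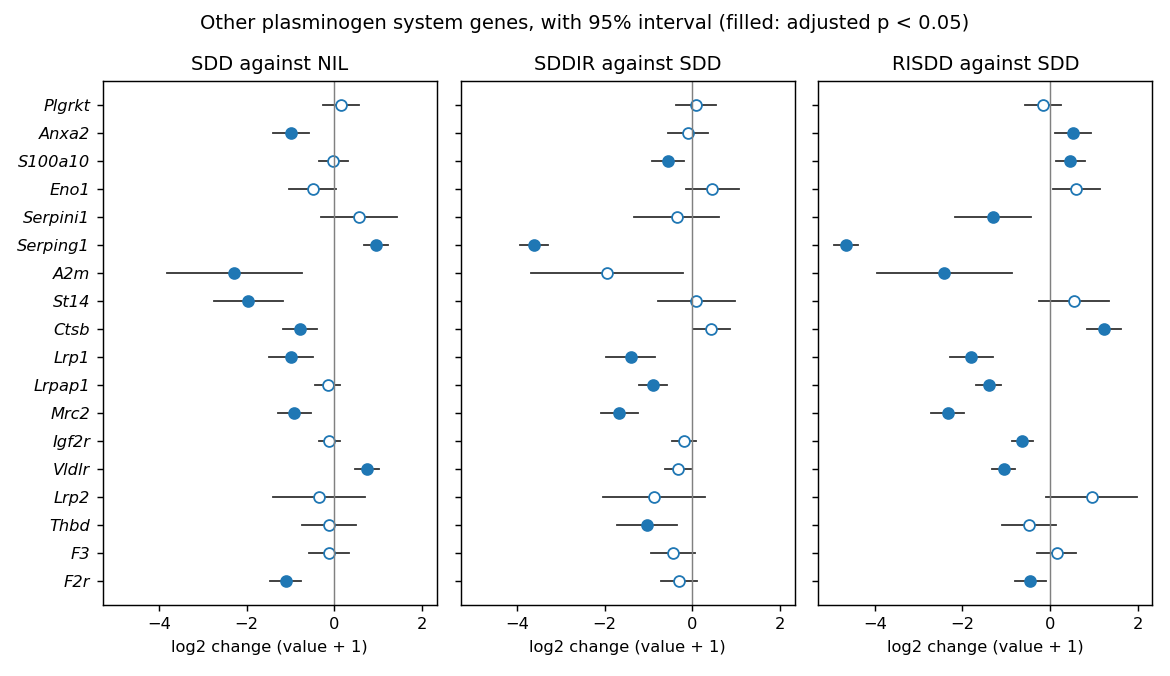
Log2 difference (value + 1) of 18 of the 19 tested genes of the plasminogen system outside the 6 members, with 95% intervals, in 3 comparisons; filled points passed at an adjusted p under 0.05. Serping1 is farthest from 0, at -3.61 in SDDIR and -4.66 in RISDD against SDD.

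Most other serpins that passed were lower with HRAS. Of 38 further Serpin genes with a row 13 were tested. In RISDD 2 were higher and 9 lower than in SDD (median log2 difference -1.93), beside 20.0% and 22.6% of all tested genes. Serpina3n, which inhibits chymotrypsin-like proteases, had means of 6057 (NIL), 2901 (SDD), 194 (SDDIR) and 10.9 (RISDD). From SDD it fell 14.9-fold to SDDIR (adjusted p = 4.48e-05) and 251.8-fold to RISDD (adjusted p = 6.86e-08). Serpina3g averaged 819, 1756, 124 and 35.8 in the same order. The Serpina3 genes are near copies of each other, so reads may have been divided among them and their values are uncertain. Serpinb6a, a close relative of Serpinb2 that acts inside cells, averaged 1754 in SDD, 1871 in SDDIR and 4374 in RISDD, 2.50-fold higher in RISDD than in SDD (adjusted p = 3.23e-04). Serpinh1, a collagen chaperone, averaged 60721 in NIL and 17093 in RISDD, 3.38-fold lower (adjusted p = 1.18e-04).

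In the order of RefSeq genes, 24 neighbours (the nearest 2 on each side of each member) included 19 tested genes. Of these 3 were higher and 2 lower in RISDD than in SDD, beside 20.0% and 22.6% of all tested genes. In that comparison the neighbours were not called more often than other genes in either direction. In SDD against NIL 0 of the 19 were higher and 3 lower, beside 9.32% and 8.26% of all tested genes. With 19 genes such shares are rough. Next to Serpinb2, in a cluster of related serpins, Serpinb7 was lower in RISDD than in SDD (log2 -1.93, adjusted p = 0.0142, lost without RISDD B, range 0.00497 to 0.0514), Serpinb8 differed by -0.18 (adjusted p = 0.676), and Serpinb10 and Serpinb11 were too low to be tested.

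Other genes tracked single members closely across the 11 libraries, which share the 4 groups. Among 10657 genes with a mean of at least 100, the closest to Plau by Pearson correlation of log2(value + 1) were Itgb3 (0.99), an integrin subunit of the vitronectin receptor, the matrix protease gene Mmp10 (0.98) and Pitpna (0.98). Itgb3 averaged 495 ± 161 (NIL), 155 ± 38.6 (SDD), 468 ± 7.83 (SDDIR) and 2420.5 ± 145 (RISDD). Closest to Plaur were Epha2 (0.99), a receptor for ephrins, Micall1 (0.99) and Ecm1 (0.98). Epha2 averaged 733 ± 268, 349 ± 151, 916 ± 95.7 and 3532 ± 109 in the same order. Plat was closest to Dcaf7, Tmem86a and Dkk3 (each 0.98). Serpine2 was closest to Lrrc15, Tmbim4 and Dglucy (each 0.98), and Lrrc15 averaged 297 ± 97.7 in NIL against 26.8 to 59.6 in the other groups. Serpinb2 was closest to Blcap (0.97), Gsto1 (0.96) and 2410039M03Rik (0.96). Serpinf1 was closest to matrix genes, the laminin gene Lamc1, Pcolce, which enhances collagen maturation, and the collagen gene Col1a1 (each 0.99). Col1a1 averaged 139540.0 in SDD, 19033 in SDDIR and 5821 in RISDD.

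Markers of other cell types did not all move the same way. From SDD to RISDD, the epithelial and endothelial markers that passed were all higher. Neuron, Schwann and macrophage markers went in both directions. Of all tested genes 20.0% were higher and 22.6% lower in that comparison. In bulk samples, fewer cells of a type and less RNA per cell cannot be told apart. Of 12 fibroblast markers 1 rose and 11 fell from SDD to RISDD, and none was at 0 in any library. Their part in the falls of Plat and Serpinf1 was not tested. The 10 epithelial markers summed to 917 to 1018 in NIL, 65.7 to 77.8 in SDD, 2449 to 3784 in SDDIR and 8779 to 12824 in RISDD. All 8 that were tested rose from SDD to RISDD. From SDD to SDDIR 3 of the 8 rose, beside 8.66% of all tested genes. The defining gene Cdh1 was at 0 in all SDD libraries, at 0 and 4.74 in SDDIR and at 71.7 to 314 in RISDD. Most of the sum in SDDIR and RISDD came from Krt8 and Krt18. In SDDIR, Krt8 was at 759 and 1560 and Krt18 at 1621 and 2149. The 10 endothelial markers summed to 158 to 170 in SDD and 645 to 747 in RISDD, with 4 of 5 tested genes higher. The 12 neuron markers summed to 8989 to 16037 in SDD and 22429 to 24618 in RISDD, with 5 higher and 5 lower. Most of the RISDD sum came from Nefl, Nefm and Gap43 (in RISDD A 9411, 3980 and 9016). Tubb3 was at 2791 to 3863 in SDD and 526 to 773 in RISDD, and Dcx at 644 to 1062 and 1.58 to 19.8. The 9 Schwann cell markers summed to 95.8 to 177 in SDD and 301 to 359 in RISDD, with 2 of 7 tested genes higher and 2 lower. The higher sum came from Mbp, at 14.7 to 22.2 in SDD and 217 to 245 in RISDD. The part of these cell types in the rise of Plau, Plaur and Serpinb2 was not tested. The 12 macrophage markers, of a cell type rich in uPAR and PAI-2, summed to 695 to 1728 in SDD and 822 to 1545 in RISDD. A large part of the RISDD sum came from Cd68, at 506 to 779 there and at 53.0 to 124 in SDD. Of the 12 markers 1 rose from SDD to RISDD (Cd68, mean 89.8 to 620.5). Another 2 fell (Adgre1, 160.3 to 16.5, and Csf1r, 82.5 to 12.4). The part of these markers in the rise of Plau, Plaur and Serpinb2 was not tested. In NIL the 12 macrophage markers summed to 3816 to 14731. From NIL to SDD 5 of the 12 fell and 0 rose, beside 8.26% and 9.32% of all tested genes. Their part in the fall of Plau and Plaur from NIL to SDD was not tested.

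**Figure D4:**
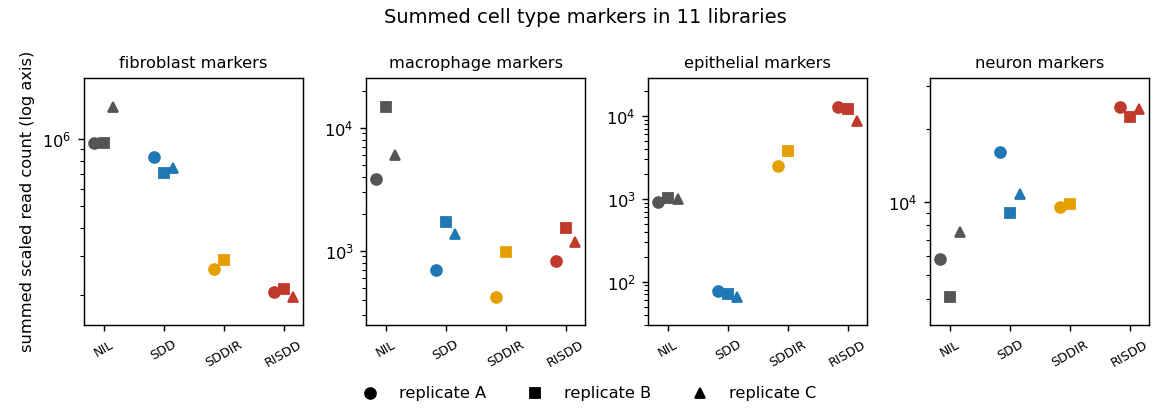
Summed scaled read counts of the fibroblast (12), macrophage (12), epithelial (10) and neuron (12) markers in each library (log axis, symbols for replicates). The fibroblast sum is lowest in RISDD, at 196720 to 212430, and the epithelial sum is highest there, at 8779 to 12824.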

How the data were processed

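Polyadenylated RNA of sorted cells was sequenced from NEBNext Ultra II Directional libraries, per the labels' protocols. The submitters' processing notes list Trim Galore 0.6.10, Salmon 1.10.3 and the build GRCm39. The tool used for summing transcripts and scaling libraries was not stated in the sources at hand. What the authors deposited is signal, gene counts divided by 1 constant per library. Every value was a whole multiple of its library's step (100% at a tolerance of 0.001), so reads were recovered. The SDDIR B heading stood on 2 identical columns and was used once, which left 1 of 12 value columns unused. Whether those values are of replicate B or C cannot be settled, and SDDIR has 1 more sample, not analysed here.

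The 14207 genes that reached 10 in 3 or more libraries entered a limma 3.58.1 fit (R 4.3.3) of log2(value + 1) that used the trend and robust options of eBayes. Alternatives were upper-quartile and quantile scaling, a pseudocount of 10, no filter, a minimum of 50, the 2 compared groups alone, a replicate block, DESeq2 1.42.0 on recovered reads, and each library left out. After the data were seen, edgeR 4.0.16 on the recovered reads was added. It called 2479, 3146, 6034, 1344, 4621 and 6422 genes in the order of the comparisons in the report (limma 2498, 3199, 6046, 1377, 4759 and 6629). The code was tested on simulated data.

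The text names all 6 members. From the other plasminogen genes and from the other serpins it names up to 3 a comparison that passed at a group mean of 100 or more, by size of change, not all of them with values, and for each member the 3 most alike genes. Plg, Vtn, Serpinf2, Klkb1, F13a1, the clearance genes without values, Cd68, Adgre1, Csf1r, the single neuron markers and the neighbours of Serpinb2 were named after their values were seen. A gene that the rule allows is not reported here. Members and lists were chosen with earlier results of these data known.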

Additional observations from a re-analysis of the deposited data

How the results depend on the processing

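Of the 27 member calls 18 kept their direction and their side of the threshold in all 20 alternatives, and none of the 27 changed sign. Values that did not pass and changed sign were Serpinb2 in SDDIR against SDD (log2 -0.13 with DESeq2, -0.18 with edgeR, -0.70 to 0.995 with a library left out), Plaur in SDDIR against NIL (-0.073 with DESeq2, -0.077 with edgeR, -0.37 to 0.31 with a library left out), Plat in RISDD against SDDIR (-0.34 to 0.11 with a library left out) and, in RISDD against SDD, Serpinb8 (-0.42 to 0.013 with a library left out). With a library left out, members called ranged from 1 to 4 in SDDIR against SDD (main 4, 2 without SDD A or SDDIR A, 1 without SDDIR B) and from 1 to 4 in RISDD against SDDIR (main 4, 1 without SDDIR A).

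Counts over all genes moved more. With only the 2 groups fitted, 697 genes passed in SDD against NIL (main 2498), 5361 in SDDIR against SDD (3199), 4923 in RISDD against SDDIR (1377) and 1590 in SDDIR against NIL (4759). DESeq2 called 2258 in RISDD against SDDIR. With a library left out the ranges were 1231 to 4128, 1673 to 6337, 308 to 4182 and 2343 to 6899 in those comparisons. The highest were without NIL C. The lowest were without SDD C in the first comparison and without SDDIR A in the others. Quantile scaling gave 1718 higher and 1790 lower genes in SDDIR against SDD. The cause of these shifts was not tested.

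The replicate letters were not taken to pair samples in the main fit. Same-letter deviations correlated at 0.0516 to 0.271 over 9 pairs, all above the -0.198 to 0.0381 of pairs with different letters. Deviations from a group mean sum to 0 within the group. Higher same-letter correlations thus push the others down, and the pairs and libraries are not independent checks. All 9 of 9 checked libraries correlated best with their own letter. This is a hint from the data of something shared by letter, and not from the design. With a replicate block 2777, 3359, 6301, 1440, 4462 and 6882 genes passed in the order of the report. It ended no member call and added 3 (Serpinb2 in SDD and in SDDIR against NIL, adjusted p = 0.0208 and 0.038, and Serpinf1 in SDD against NIL). SDDIR rests on 2 libraries, and Serpinb2 on 1 to 22 reads in each SDD and SDDIR library, which limits both.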
